A study of Mus musculus with 22 samples.

Results

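The 10 genes described here are respiratory chain genes of the mitochondrial DNA itself. They are mt-Nd1, mt-Nd2, mt-Nd4, mt-Nd5 and mt-Nd6 of complex I, mt-Cytb of complex III, mt-Co1, mt-Co2 and mt-Co3 of complex IV, and mt-Atp6 of the ATP synthase. The rule takes them by gene symbol and not by their values, although the set was proposed with earlier results of these data known, and all 10 were found among the 48709 Ensembl genes of both count tables and passed the filter of a mean count above 1. The other 3 protein-coding genes of mitochondrial DNA, mt-Nd3, mt-Nd4l and mt-Atp8, are given beside them.

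RNA came from heart ventricles of C57/Bl6 mouse embryos at E13.5, and all of them, controls included, carried Nkx2.5-Cre, a recombinase made from the Nkx2.5 locus in cardiac precursor cells. The first experiment compared LIN9 wt with LIN9 KO, Sav1 being intact, and the second had LIN9 wt with Sav1 wt (called controls here), LIN9 KO with Sav1 wt, LIN9 wt with Sav1 KO, and LIN9 KO with Sav1 KO (double KO), each of the 6 groups with 3 libraries. The knockouts are floxed alleles of Lin9 (exon 7) and of Sav1 (exon 3). Lin9 encodes a core subunit of MuvB, which activates mitotic genes together with B-MYB and represses cell cycle genes within the DREAM complex. Sav1 encodes a scaffold of the Hippo kinases that restrain the coactivator YAP. The LIN9 wt animals are labelled wild-type, whereas the study's text gives them as heterozygous for the floxed Lin9 allele, and cells outside the Nkx2.5 lineage keep both genes. The labels do not say whether replicates are separate embryos or pools, and the study's text describes the LIN9 comparison as a pair of biological replicates, each done in triplicate, so the 3 libraries of a group may share their source. SDs, intervals and p-values measure the spread between these libraries only, which may be technical.

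Mitochondrial DNA is a small circle, present in many copies per cell, that is transcribed from both strands into long precursors. These precursors are cut at tRNA genes into mRNAs, rRNAs and tRNAs, and most of the mRNAs receive poly(A) tails, by which the poly(A) selection used for these libraries can catch them. The mRNA of mt-Nd6, the only one from the other strand, is known to lack a regular tail, so its level is less comparable with the others. The proteins are core subunits of respiratory complexes that are completed by nuclear-encoded subunits, and the heart, which makes most of its ATP by oxidative phosphorylation, is among the tissues richest in these transcripts.

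The 10 genes lie within the 16299 bases of mitochondrial DNA (GRCm38 sequence with the GENCODE M21 annotation), each as 1 uninterrupted protein-coding gene. On the plus strand follow mt-Nd1 at chrM:2751-3707, mt-Nd2 at chrM:3914-4951, mt-Co1 at chrM:5328-6872, mt-Co2 at chrM:7013-7696, mt-Atp6 at chrM:7927-8607, mt-Co3 at chrM:8607-9390, mt-Nd4 at chrM:10167-11544, mt-Nd5 at chrM:11742-13565 and mt-Cytb at chrM:14145-15288. Only mt-Nd6, at chrM:13552-14070, is read from the minus strand. The last 24 bases of each gene, 5′ to 3′ on its own strand, are shown because they differ in whether the gene encodes its whole stop codon, with the stop codon, or the lone T left of it, in capitals.
mt-Nd1: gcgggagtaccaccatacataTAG
mt-Nd2: ctagccccccaactaattaccTAG
mt-Nd4: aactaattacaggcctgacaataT
mt-Nd5: ttatactcaattaatctcgagTAA
mt-Nd6: attatcgagattactcgagatTAA
mt-Cytb: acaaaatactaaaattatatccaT
mt-Co1: ccaacctatgtaaaagtaaaaTAA
mt-Co2: aactgatctgcttcaataattTAA
mt-Co3: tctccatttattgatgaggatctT
mt-Atp6: ctatatctacatgataatacaTAA
In mt-Nd4, mt-Cytb and mt-Co3 the gene ends on a T, and the stop codon is completed only by the first As of the tail.

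Several of these genes share sequence with a neighbour or with the nucleus, which bears on how reads were assigned. The 3′ ends of mt-Nd5 and mt-Nd6 overlap on opposite strands by 14 bases, shown in capitals within chrM:13544-13573 (plus strand) as atactcaaTTAATCTCGAGTAAtctcgata, and mt-Atp6 shares 43 bases with mt-Atp8. The strand setting of the counting is not given in the sources used here, so reads of mt-Nd6 and reads antisense to it cannot be told apart. A copy of mitochondrial DNA on chromosome 1 (chr1:24611535-24616188, minus strand) matches positions 6390 to 11042 at 99.936% identity, with 2 mismatches and 1 inserted base over 4654 aligned columns. It contains all of mt-Co2, mt-Atp6 and mt-Co3, 63.6% of mt-Nd4 and 31.3% of mt-Co1, and none of mt-Nd1, mt-Nd2, mt-Nd5, mt-Nd6 or mt-Cytb. Other copies were found as well, less similar or shorter, on chromosome 2 for positions 4441 to 7699 (97.4% identity; part of mt-Nd2, all of mt-Co1 and mt-Co2), on chromosome 5 for 4850 to 5231 (97.9%; part of mt-Nd2), on chromosome 4 for 12488 to 15359 (93.0%; part of mt-Nd5, all of mt-Nd6 and mt-Cytb) and on chromosome 13 for 12446 to 13400 (95.2%; part of mt-Nd5). A further stretch of chromosome 2 is identical to 11514 to 11642 over 129 bases and reaches into the 3′ end of mt-Nd4. Short copies lie within mt-Atp6. Of the members, mt-Nd1 alone was matched by none of the copies found, and counts of the copies outside chromosome 1 were not analysed here. A mismatch in mt-Nd3, T9461C (mitochondrial base first, position on the mitochondrial plus strand, then the base of the copy), shows how little separates the sequences, with the differing base in capitals.
mitochondrial DNA, chrM:9449-9473: gaagagagtaatTaacctgtacact
chromosome 1 copy, chr1:24613105-24613129, on the mitochondrial strand: gaagagagtaatCaacctgtacact
The copies are annotated as pseudogenes, and those of mt-Co2, mt-Co3 and mt-Atp6 received about as many counts as the genes or more. Over the 18 libraries the count of Gm28661 was 0.943 to 1.01 of that of mt-Co2, that of Gm28437 was 0.958 to 1.03 of mt-Co3 and that of Gm10925 was 1.18 to 1.25 of mt-Atp6, whereas Gm28439 had 0.42 to 0.479 of mt-Nd4 and Gm29216 had 0.164 to 0.186 of mt-Co1. The levels of these 5 members are therefore only part of the reads from their sequence, and their levels are uncertain. With each member summed with its copy, the number of members past the threshold stayed the same in 6 of the 7 comparisons.

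The libraries held 9485599 to 9615274 counts in the first and 2770741 to 2999877 in the second experiment, and each member had at least 1347 counts in every library. Gene-level counts of Lin9 and Sav1, over all exons, do not check the deletion of 1 exon. Lin9 in the first experiment was at 21.4, 21.3 and 19.2 CPM (counts scaled to a common library size) in LIN9 KO and 29.8, 21.4 and 25.6 CPM in LIN9 wt. The nearest libraries were level, and the difference did not pass the test (-0.31 ± 0.137, edgeR, adjusted p = 0.130). Lin9 was lower in LIN9 KO than in control libraries of the second experiment (13.1, 15.4 and 17.9 against 29.2, 28.1 and 23.2 CPM). In double KO (23.5, 26.0 and 18.5) it overlapped with Sav1 KO (19.2, 31.4 and 25.6). Sav1 was at 43.0, 36.1 and 43.0 CPM in Sav1 KO and 43.9, 40.5 and 42.3 CPM in double KO, below the controls (54.5, 56.1 and 61.9) and LIN9 KO (51.9, 49.8 and 47.3) in every library. Haemoglobin genes took 2.13% to 3.75% of counts in LIN9 KO and 1.04% to 3.10% in double KO against 0.422% to 0.544% in controls, and 3.52% to 8.64% against 0.785% to 1.11% in the first experiment. The summed level of 14 cardiomyocyte markers was 16695 to 18817 CPM in LIN9 KO and 16345 to 19901 CPM in double KO against 29148 to 29866 CPM in controls, with 8 of the 14 lower and 1 (Nppa) higher in the LIN9 KO test, while the defining marker Actc1 is listed at 0 in every library. Of the other cell types, 12 of 12 erythroid, 6 of 7 epicardial, 6 of 7 fibroblast and cushion, 6 of 7 macrophage, 3 of 8 endothelial and 1 of 4 smooth muscle markers were higher in LIN9 KO with Sav1 wt, and 1 endothelial and 1 smooth muscle marker were lower (edgeR). The shares of all genes called in that comparison, in either direction and as lower, are given below with the members. In RNA from whole ventricles, fewer cells of a type and less RNA per cell cannot be told apart.

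Relative to gene length, the counts assigned to the mitochondrial genes put mt-Co1 first in all 6 groups. In control ventricles it stood at 7858 ± 809 CPM per kb (mean ± SD, n = 3), followed by mt-Nd1 (5148 ± 427), mt-Cytb (4764 ± 636), mt-Co2 (4331 ± 387), mt-Co3 (3624 ± 476), mt-Atp6 (3341 ± 607), mt-Nd2 (2475 ± 249), mt-Nd4 (2107 ± 420.0), mt-Nd6 (1809 ± 409.6) and mt-Nd5 (1799 ± 435), all in CPM per kb. This order depends on the reads shared with chromosome 1. With the counts of the copies added, mt-Co2 (8493 ± 780.1), mt-Atp6 (7480 ± 1343) and mt-Co3 (7306 ± 925) came next to mt-Co1 (9192 ± 958), these 4 overlapping with their neighbours, and mt-Nd1 moved from place 2 to place 5, in CPM per kb. Under either count mt-Nd2, mt-Nd4, mt-Nd5 and mt-Nd6 took the last 4 places in controls and all their libraries lay below those of mt-Nd1 and mt-Cytb.

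The order between mt-Nd1 and mt-Cytb, neither of which has a copy on chromosome 1, differed between groups. In controls, Sav1 KO and LIN9 wt of the first experiment the mean of mt-Nd1 was the higher, and in the LIN9 KO groups and double KO that of mt-Cytb, at 2729 ± 413 against 2421 ± 245 CPM per kb in LIN9 KO and 4176 ± 672 against 3865 ± 658 in LIN9 KO of the first experiment. Within single libraries, mt-Nd1 was the higher of the pair in 3 of 3 libraries of each LIN9 wt group, mt-Cytb in 3 of 3 of LIN9 KO in the first experiment and of double KO, and mt-Cytb in 2 of 3 of LIN9 KO in the second. Across libraries the ranges of the pair were apart in Sav1 KO (5803 ± 356 for mt-Nd1, 5205 ± 328 for mt-Cytb) and overlapped in the other 5 groups.

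Together the 10 members took 3.50%, 4.32% and 4.31% of all counts in the control libraries, 2.44%, 2.42% and 2.77% in LIN9 KO, 3.99%, 4.56% and 4.55% in Sav1 KO and 4.08%, 2.86% and 3.39% in double KO. In the first experiment they took 4.35%, 3.90% and 5.04% in LIN9 wt and 3.69%, 3.17% and 3.16% in LIN9 KO. LIN9 KO libraries were below LIN9 wt libraries in both experiments. Double KO overlapped with the controls by replicate 1 (4.08%), while replicates 2 (2.86%) and 3 (3.39%) lay below all controls. By share, all double KO libraries lay above all LIN9 KO libraries, but not on the TMM scale. There the summed level of the 10 was 28585 to 40363 CPM in double KO and 23741 to 28621 CPM in LIN9 KO. Without haemoglobin genes in the total, the second experiment stayed apart (2.49% to 2.88% in LIN9 KO, 3.52% to 4.34% in controls). The groups of the first experiment then overlapped, with 4.04%, 3.32% and 3.27% in LIN9 KO against 4.40%, 3.93% and 5.09% in LIN9 wt.

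**Figure D1:**
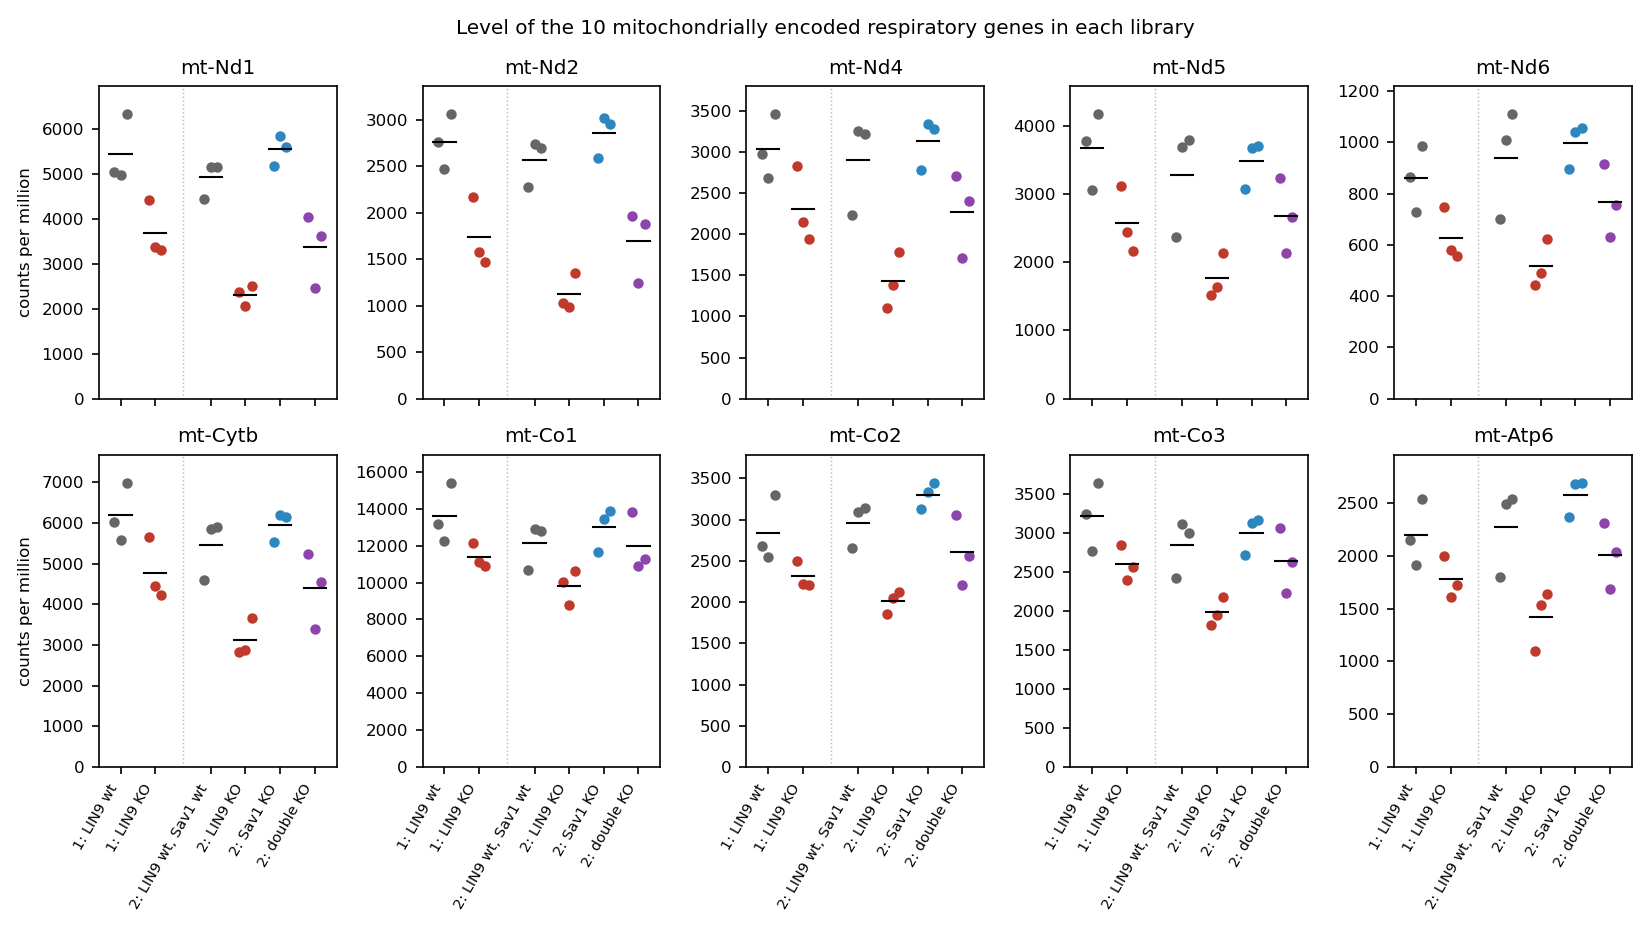
Level of each of the 10 members (vertical axis, CPM, starting at 0) in every library, with points for libraries and bars for group means; 1 and 2 name the first and second experiment. In LIN9 KO of the second experiment all 3 points lie below all 3 control points for each of the 10 genes, for mt-Nd1 at 2058 to 2517 CPM against 4455 to 5165 CPM.

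The comparison of LIN9 KO with LIN9 wt asks what the loss of a MuvB subunit in cardiac precursors does to these transcripts. In the second experiment, with Sav1 wt, all 10 members were lower in LIN9 KO ventricles, most strongly the complex I genes mt-Nd2, mt-Nd1 and mt-Nd4 and least mt-Co1. In the first experiment 4 of the 10 were lower by the same test, all of them genes of complex I. The median log2 fold change of the 10 was -0.83 in the second and -0.39 in the first experiment, where the medians of all genes tested were 0.01 and 0.02. The background was 23.2% of genes called in either direction and 10.5% lower in the second experiment, and 20.9% and 9.78% in the first (edgeR, Benjamini-Hochberg adjusted p under 0.05). Both experiments were analysed as separate tables, and the difference between their effects was not tested.

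Complex I, the NADH dehydrogenase that passes electrons to ubiquinone, has 5 members here, all subunits of its membrane arm. Of these, mt-Nd1 forms part of the ubiquinone site, at the junction with the peripheral arm. Its level was 4455, 5165 and 5160.5 CPM in controls and 2375, 2058 and 2517 CPM in LIN9 KO, and in the first experiment 5055, 4979 and 6332 CPM in LIN9 wt and 4424, 3369 and 3303 CPM in LIN9 KO. The groups did not overlap in either experiment, and the log2 fold change was -1.09 ± 0.139 (SE; edgeR, Benjamini-Hochberg adjusted p = 1.5e-05) in the second and -0.56 ± 0.165 (adjusted p = 0.0243) in the first. The antiporter-like subunit gene mt-Nd2 was at 2272, 2739.7 and 2695 CPM in controls and 1028, 990.2 and 1352 CPM in LIN9 KO, and at 2759, 2466 and 3057 against 2172, 1573 and 1469 CPM in the first experiment. Again no LIN9 KO library reached a LIN9 wt library, and in both experiments mt-Nd2 had the largest fall of the 10 by its point estimate, with log2 fold changes of -1.19 ± 0.164 (edgeR, adjusted p = 0.000106) and -0.67 ± 0.163 (adjusted p = 0.00829).

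The next of these proton-pumping subunits, mt-Nd4, was at 2236, 3256 and 3219 CPM in controls and at 1106, 1387 and 1787 CPM in LIN9 KO, with control replicate 1 well below its group. The log2 fold change was -1.03 ± 0.230 (edgeR, adjusted p = 0.0107), while in the first experiment the libraries overlapped (2972, 2691 and 3459 against 2836, 2143 and 1938 CPM) and the value of -0.40 ± 0.164 did not pass the test (adjusted p = 0.102). The gene mt-Nd5, the longest of the 10 with 1824 bases, was at 2367, 3688 and 3792 CPM in controls and 1522, 1630.3 and 2136 CPM in LIN9 KO, a log2 fold change of -0.90 ± 0.218 (edgeR, adjusted p = 0.0149). It was also lower in the first experiment, at -0.51 ± 0.168 (edgeR, adjusted p = 0.0415), although LIN9 KO replicate 1 (3118 CPM) lay above LIN9 wt replicate 2 (3065 CPM). The minus-strand gene mt-Nd6 showed the same picture, with 701, 1008 and 1109 CPM in controls and 442, 491 and 622 CPM in LIN9 KO (-0.86 ± 0.191, edgeR, adjusted p = 0.00702), and with -0.45 ± 0.146 (adjusted p = 0.0382) and overlapping groups in the first experiment. The counts assigned to mt-Nd6 were thus lower in LIN9 KO, as were those of the plus-strand genes. Since reads of mt-Nd6 and reads antisense to it cannot be told apart, this does not show that RNA of both strands was lower.

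Complex III passes electrons from ubiquinol to cytochrome c, and mt-Cytb is its only subunit encoded in mitochondrial DNA. Its level was 4611, 5846 and 5894 CPM in controls and 2828, 2869.6 and 3667 CPM in LIN9 KO, without overlap, and the log2 fold change was -0.80 ± 0.148 (edgeR, adjusted p = 0.000832). In the first experiment 6014, 5575 and 6983 CPM stood against 5656, 4446 and 4231 CPM, with an overlap by LIN9 KO replicate 1 and a value of -0.37 ± 0.162 that did not pass the test (adjusted p = 0.124).

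Complex IV, cytochrome c oxidase, reduces oxygen, and its catalytic core consists of the products of mt-Co1, which holds the oxygen-binding site, mt-Co2, which takes electrons from cytochrome c, and mt-Co3. The top gene mt-Co1 had 10699, 12915 and 12809 CPM in controls and 10004, 8788 and 10603 CPM in LIN9 KO. The nearest libraries of these groups were almost level, and the log2 fold change of -0.31 ± 0.107 (edgeR, adjusted p = 0.0360) was the smallest of the 10 members. The first experiment had mt-Co1 at 13184, 12250.5 and 15391 CPM against 12154, 11138 and 10875 CPM, apart but not past the test (-0.26 ± 0.162, adjusted p = 0.306). The gene mt-Co2 had 2658, 3093 and 3136 CPM in controls and 1851, 2053 and 2126 CPM in LIN9 KO (-0.56 ± 0.108, edgeR, adjusted p = 0.000285), and mt-Co3 had 2416, 3114 and 2993 CPM in controls and 1819, 1943 and 2177 CPM in LIN9 KO (-0.52 ± 0.115, adjusted p = 0.00132). Both were lower without overlap in the second experiment, and in the first they had log2 fold changes of -0.30 ± 0.145 and -0.31 ± 0.148 that did not pass (edgeR, adjusted p = 0.170 and 0.167).

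In the ATP synthase, mt-Atp6 makes the subunit that forms the proton channel with the rotor ring. It was at 1799, 2494 and 2534 CPM in controls and 1097, 1530.0 and 1636 CPM in LIN9 KO, a log2 fold change of -0.68 ± 0.167 (edgeR, adjusted p = 0.00942). In the first experiment, with 2145, 1914 and 2536 CPM against 1997, 1609 and 1722 CPM, the libraries overlapped and the value was -0.31 ± 0.147 (edgeR, adjusted p = 0.162).

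In all, the libraries of LIN9 KO and controls did not overlap for 10 of 10 members in the second experiment, where 16.8% of all genes were apart and lower. In the first they did not overlap for 4 of 10 (mt-Nd1, mt-Nd2, mt-Co1 and mt-Co2), where 18.1% of all genes were apart and lower. Such counts, and those of members called, do not stand for separate results, as the members move together from library to library. Leaving out single libraries left 8 to 10 calls in the second experiment. The calls lost there were mt-Co1 without control replicate 2 (edgeR, adjusted p = 0.0960), control replicate 3 (0.155) or LIN9 KO replicate 2 (0.144), and mt-Nd5 without LIN9 KO replicate 1 (0.0553) or 2 (0.0507), all adjusted p. In the first experiment 1 to 5 members were called. Only mt-Nd2 remained past the threshold without LIN9 wt replicate 1, LIN9 wt replicate 3 or LIN9 KO replicate 2, and mt-Nd1 and mt-Nd2 without LIN9 KO replicate 3. Over the 15 other settings and left-out libraries tried for it, mt-Nd2 had adjusted p-values from 8.66e-05 to 0.0435 in the first experiment (edgeR or DESeq2).

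**Figure D2:**
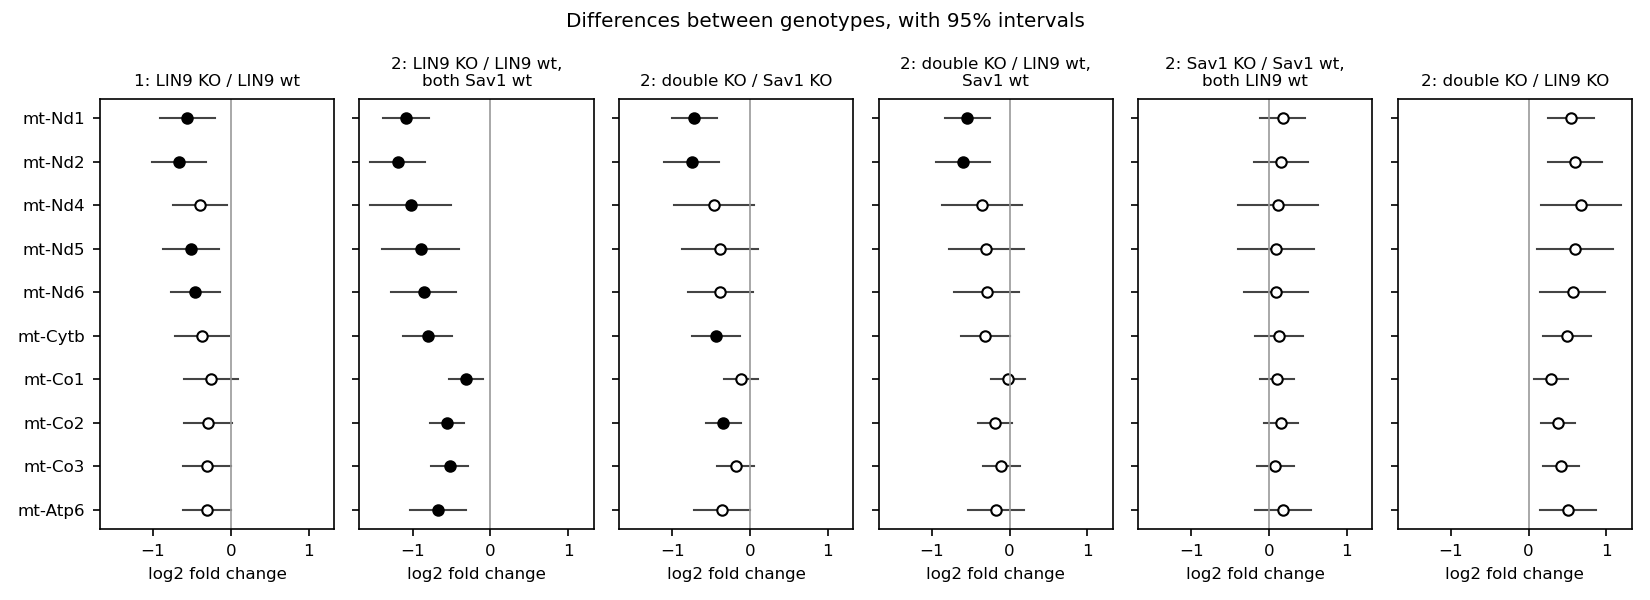
Log2 fold change of each member (points) with its 95% interval (lines) in 6 comparisons; filled points passed the test (edgeR, Benjamini-Hochberg adjusted p under 0.05) and the vertical line marks no difference. All 10 points are filled in LIN9 KO against control of the second experiment, 4 in the first experiment and in double KO against Sav1 KO, 2 in double KO against control, and 0 in both Sav1 KO comparisons.

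The same loss of LIN9 was then read in the Sav1 KO background, by comparing double KO with Sav1 KO ventricles. There 4 of 10 members were lower (edgeR), where 23.4% of all genes were called and 11.6% were lower, and the median of the 10 was -0.38, beside 0.03 for all genes. For mt-Nd1, 5188, 5862 and 5609 CPM in Sav1 KO stood against 4039, 2472 and 3624 CPM in double KO (-0.72 ± 0.138, edgeR, adjusted p = 0.000937). For mt-Nd2 the levels were 2589, 3019 and 2952 CPM against 1964, 1247 and 1875 CPM (-0.75 ± 0.162, edgeR, adjusted p = 0.00387). These genes again had the largest point estimates, and in both of them double KO replicate 2 was the lowest library. The other genes called were mt-Co2, with 3131, 3336 and 3443 CPM against 3059, 2207 and 2561 CPM (-0.34 ± 0.108, edgeR, adjusted p = 0.0210), and mt-Cytb, with 5522, 6198 and 6143 CPM against 5241, 3394 and 4554 CPM (-0.44 ± 0.147, adjusted p = 0.0420). The other 6 members had log2 fold changes between -0.46 (mt-Nd4) and -0.12 (mt-Co1) with adjusted p-values from 0.144 to 0.486. The groups did not overlap for 6 members, where 19.2% of all genes were apart and lower. The smaller calls depended on which libraries entered the fit. Without double KO replicate 2, Sav1 KO replicate 2 or Sav1 KO replicate 3, neither mt-Co2 nor mt-Cytb passed (edgeR, adjusted p from 0.0661 to 0.145), mt-Cytb alone was lost without Sav1 KO replicate 1 (0.0629) or double KO replicate 3 (0.0801), and without double KO replicate 1 there were 5 calls, with mt-Co3 (adjusted p = 0.0401) added. Fitted on the 6 libraries compared alone, 8 members passed, all but mt-Co1 and mt-Co3 (edgeR, adjusted p at most 0.0222). That fit called 28.6% of all genes, and 13.6% as lower. When mt-Nd4, mt-Co1, mt-Co2, mt-Co3 and mt-Atp6 were summed with their chromosome 1 copies, 3 members remained past the threshold, as mt-Cytb no longer passed (-0.44, edgeR, adjusted p = 0.0582).

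Against controls, from which both genes differ, double KO ventricles had 2 of 10 members lower, mt-Nd1 (-0.54 ± 0.138, edgeR, adjusted p = 0.00878) and mt-Nd2 (-0.60 ± 0.162, adjusted p = 0.0175). The background there was 20.6% of genes called and 9.96% lower, and the same 2 members were those without overlap, where 17.6% of genes were apart and lower. The other 8 had log2 fold changes between -0.35 (mt-Nd4) and -0.02 (mt-Co1). The lowest adjusted p among these was 0.158 (mt-Cytb, edgeR). This comparison shares its controls with that of LIN9 KO. Without control replicate 2 only mt-Nd1 passed (mt-Nd2, edgeR, adjusted p = 0.0632), and without double KO replicate 1 mt-Co2 (adjusted p = 0.0177) and mt-Cytb (adjusted p = 0.0211) passed as well.

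The Sav1 comparisons ask what loss of the Hippo scaffold adds. With LIN9 wt, no member was called (0 of 10, edgeR), where 3 of 17675 genes, 0.017%, were called, and 0 of 10 had an unadjusted p under 0.05, where 3.93% of all genes had one. Values ran from 0.08 (mt-Co3, 95% interval -0.16 to 0.31) to 0.18 (mt-Atp6, -0.18 to 0.54) on the log2 scale. Only mt-Nd1 had groups apart, at 5188 to 5862 CPM in Sav1 KO against 4455 to 5165 CPM in controls, with a log2 fold change of 0.17 and an interval of -0.12 to 0.46, and 5.97% of all genes were apart and higher. DESeq2 also called 0 members. The sign of 4 members (mt-Nd4, mt-Nd5, mt-Nd6 and mt-Co3) turned without control replicate 1, which had the lowest level of its group in each of the 10 genes.

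With LIN9 KO, the members were higher in double KO than in LIN9 KO in all 10 point estimates, but 0 of 10 passed the adjusted test (edgeR), where 2 of 17675 genes, 0.0113%, were called. The log2 fold changes ran from 0.29 ± 0.107 (mt-Co1, 95% interval 0.07 to 0.51, adjusted p = 0.257) to 0.67 ± 0.229 (mt-Nd4, 0.16 to 1.19, adjusted p = 0.296), with a median of 0.52 beside 0.00 for all genes tested, and the adjusted p-values of the 10 were 0.140 to 0.326 (edgeR). All 10 had an unadjusted p under 0.05, as had 11.8% of all genes. As the members move together from library to library, these 10 values are not 10 separate results. For mt-Nd6 the levels were 442, 491 and 622 CPM in LIN9 KO against 914, 630.3 and 754 CPM in double KO, and for mt-Co2 they were 1851, 2053 and 2126 against 3059, 2207 and 2561 CPM. These genes, mt-Co1, mt-Co3 and mt-Atp6 had groups without overlap (5 of 10), where 7.2% of all genes were apart and higher. In mt-Nd1, by contrast, double KO replicate 2 (2472 CPM) lay below LIN9 KO replicate 3 (2517 CPM).

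How many members were called in this comparison depended on the test and the libraries. DESeq2 called 7 members and 46 genes, edgeR without the filter on low counts called 8 members and 309 genes, and edgeR without LIN9 KO replicate 3 or without double KO replicate 2 called 3 members each. Without LIN9 KO replicate 3, these were mt-Nd2 (adjusted p = 0.0199), mt-Co3 (0.0423) and mt-Cytb (0.0300), with 377 genes called, and without double KO replicate 2, mt-Nd1 and mt-Nd2 (0.00810) and mt-Cytb (0.0304), with 15 genes called. The difference between the 2 Sav1 effects, tested as the interaction of LIN9 and Sav1, was between 0.19 (mt-Co1, 95% interval -0.12 to 0.50) and 0.56 (mt-Nd4, -0.17 to 1.29) for the 10 members. It passed for 0 of them and for 0% of all genes (edgeR, adjusted p from 0.761 to 0.876 for the members). An unadjusted p under 0.05 was found for 1 member (mt-Co3), as for 6.52% of all genes, and DESeq2 called 0 members. A Sav1 effect on these genes that differs between LIN9 backgrounds was therefore not shown, and the intervals do not exclude one.

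Counts relative to mt-Co1 in the same library need no library size. Since mt-Co1 had the smallest change of the 10, the direction of the mean ratios in LIN9 KO is set by the choice of this gene. The log2 ratio of mt-Nd1 to mt-Co1 was -1.32 to -1.26 in controls and -2.09 to -2.07 in LIN9 KO, and -1.38 to -1.28 against -1.73 to -1.46 in the first experiment. That of mt-Nd2 was -2.25 to -2.24 in controls against -3.28 to -2.97 in LIN9 KO, and -2.33 to -2.26 against -2.89 to -2.48. LIN9 KO libraries were thus below LIN9 wt libraries in both ratios and both experiments, and so were double KO (-2.14 to -1.64 for mt-Nd1) against Sav1 KO libraries (-1.31 to -1.17). The ratio of mt-Co2 was -2.06 to -2.01 in controls and -2.43 to -2.10 in LIN9 KO, and it overlapped in the first experiment (-2.30 to -2.22 against -2.33 to -2.28). The ratios are given as a description. Such a ratio shows unequal change within a library and does not show which of its genes changed.

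**Figure D3:**
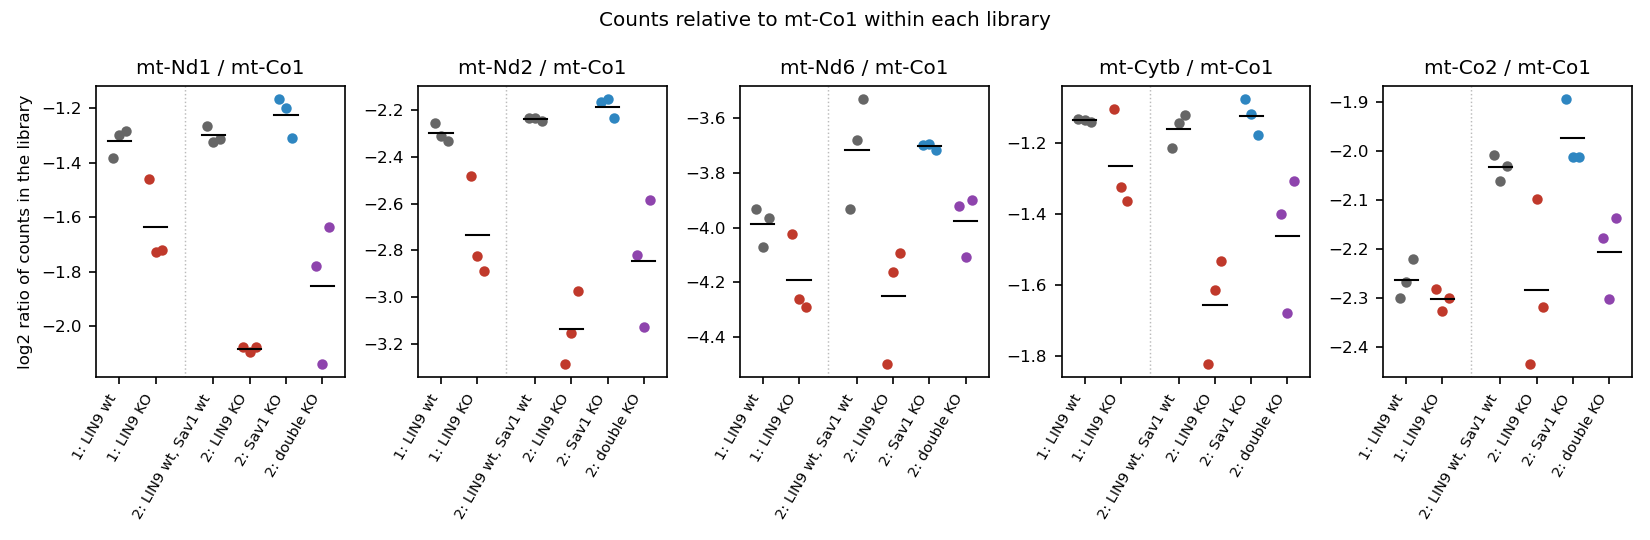
Log2 ratio of the counts of 5 members to those of mt-Co1 within each library (vertical axes, not starting at 0 and differing between panels); points are libraries, bars group means, and 1 and 2 the experiments. For mt-Nd1 the 3 LIN9 KO libraries of the second experiment lie between -2.09 and -2.07, far below the 3 controls between -1.32 and -1.26.

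Across libraries the 10 members moved together. Pearson correlations of log2 CPM between pairs of members ran from 0.834 (mt-Co1 with mt-Nd2) to 0.998 over the 12 libraries of the second experiment and from 0.906 to 0.996 over the 6 of the first, for 45 pairs each. They are given as a description, since the genes share library, normalization and, for long stretches, a precursor RNA, and the libraries fall into genotype groups. Among 12369 other genes with a mean of at least 5 CPM, with mitochondrial DNA and its chromosome 1 copies left out, those whose log2 CPM followed the mean of the members most closely over the 12 libraries were Tardbp (r = 0.992), Tra2b (0.983), Pdss1 (0.981), Slc35b1 (0.977) and Hnrnpdl (0.970). Of these, Tardbp, Tra2b and Hnrnpdl encode RNA-binding proteins, Pdss1 a subunit of the enzyme that makes the side chain of ubiquinone, and Slc35b1 a nucleotide carrier of the endoplasmic reticulum. Over the 6 libraries of the first experiment, which did not choose them, their correlations were 0.824, 0.973, 0.940, 0.530 and 0.688 in the same order.

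The other 3 protein-coding genes of mitochondrial DNA were also lower in LIN9 KO of both experiments. Levels of mt-Nd3 were 514, 515 and 494 CPM in controls, 234, 161 and 219 CPM in LIN9 KO, 506, 550.0 and 533 CPM in Sav1 KO and 399, 243 and 378 CPM in double KO. It was lower in LIN9 KO with Sav1 wt (-1.31 ± 0.167, edgeR, adjusted p = 6.19e-05), in double KO against Sav1 KO (-0.64 ± 0.164, adjusted p = 0.0120) and in LIN9 KO of the first experiment (-0.64 ± 0.136, adjusted p = 0.00327). The genes mt-Nd4l and mt-Atp8 were lower in LIN9 KO in the second (-1.14 and -0.82) and the first experiment (-0.49 and -0.38, edgeR, adjusted p at most 0.0438) and did not pass in double KO against Sav1 KO (adjusted p = 0.0628 and 0.0625). All 3 genes lie within the chromosome 1 copy, and mt-Atp8 also overlaps mt-Atp6, so their levels are uncertain as well.

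The 2 mitochondrial rRNAs, which are cut from the same precursors, passed the test in no comparison. The libraries were selected for poly(A) RNA, so counts of rRNA are less comparable with those of the mRNAs. How much rRNA the selection left in each library was not tested. Levels of mt-Rnr2, the large rRNA, were 1706, 2562 and 2929.7 CPM in controls, 1111, 991 and 4755 CPM in LIN9 KO, 1775, 1955 and 2186 CPM in Sav1 KO and 3852, 4327 and 3879 CPM in double KO. Those of mt-Rnr1, the small rRNA, were 931, 1139 and 1368 CPM in controls, 744, 592 and 2454 CPM in LIN9 KO, 789, 834 and 955 CPM in Sav1 KO and 1847, 2187 and 2058 CPM in double KO. For both rRNAs, LIN9 KO replicate 3 and all 3 double KO libraries were above all controls, and LIN9 KO replicates 1 and 2 below them. The log2 fold changes of double KO against Sav1 KO, 1.24 ± 0.485 for mt-Rnr1 and 1.03 ± 0.561 for mt-Rnr2, did not pass (edgeR, adjusted p = 0.107 and 0.242). In LIN9 KO, replicate 3 was also the highest library in all 10 members, whereas in double KO replicate 2, with the most mt-Rnr2, was the lowest in all 10. The part of rRNA in the differences between double KO and LIN9 KO was not tested.

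**Figure D4:**
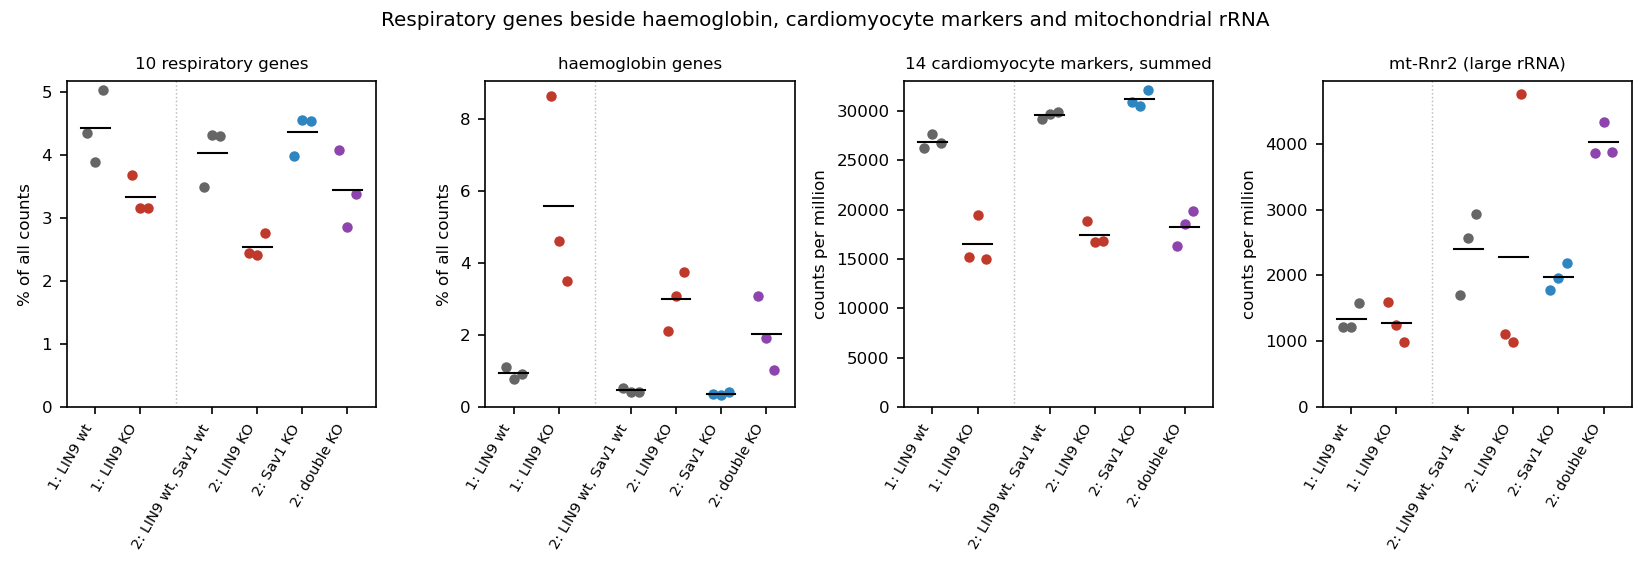
Per library, from left to right: share of all counts on the 10 members (%), share on haemoglobin genes (%), summed level of 14 cardiomyocyte markers (CPM) and level of mt-Rnr2 (CPM); all axes start at 0, bars are group means. Within each experiment, haemoglobin is higher and the cardiomyocyte sum lower in every LIN9 KO and double KO library than in the LIN9 wt libraries, and mt-Rnr2 reaches 4755 CPM in 1 LIN9 KO library and 3852 to 4327 CPM in double KO.

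Nuclear genes for the same complexes were lower as well in LIN9 KO. With Sav1 wt in the second experiment, 29 of 35 tested nuclear genes of complex I, 4 of 4 of complex II (which has no mitochondrial subunit), 9 of 9 of complex III, 10 of 14 of complex IV and 16 of 18 of the ATP synthase were lower (edgeR, adjusted p under 0.05), where 10.5% of all genes were lower. Their medians were -0.60, -0.72, -0.54, -0.47 and -0.60. In double KO against Sav1 KO the counts were 27, 4, 9, 10 and 17 (11.6% of all genes), and in the first experiment 27, 4, 8, 7 and 14 (9.78% of all genes). In LIN9 KO with Sav1 wt of the second experiment, the largest fall within each complex was that of Ndufb2 (-0.93), Sdhb (-0.81), Cyc1 (-1.15), Cox5a (-0.67) and Atp5g3 (-0.83), in the order of the complexes. The last is a gene for the rotor ring of the ATP synthase. In complex IV 2 isoform genes rose, Cox4i2, from 4.84 to 5.48 CPM in controls to 26.8 to 35.7 CPM in LIN9 KO (2.58 ± 0.233, edgeR, adjusted p = 3.33e-09), and Cox6b2 (1.77, adjusted p = 3.56e-05), which was named after its value had been seen. Cox4i1, the common isoform of the first of these, is listed at 0 in all 18 libraries, as is Cox6a2. These zeros, like that of Actc1 above, may stem from how reads were assigned to genes, which was not tested. They are not read as absence of the RNA, so the isoforms cannot be compared. The sum of cardiomyocyte markers was also lower and the share of haemoglobin higher in LIN9 KO and double KO, and their part in the falls was not tested. In double KO the cardiomyocyte sum (CPM) lay below all controls. The share of counts on the members was 4.08%, 2.86% and 3.39% in double KO and 3.50%, 4.32% and 4.31% in controls. These measures are on different scales, and their relation was not tested.

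In the Sav1 comparison with LIN9 KO, the medians of the nuclear lists of complexes I to V lay between -0.04 and 0.03, with 0 genes called in each, beside 0.52 for the 10 members, of which 0 were called. The values of Cyc1 (0.06 ± 0.112), Sdhb (0.01 ± 0.103) and Cox5a (-0.04 ± 0.111) were near 0. The difference between the lists is a description and was not tested.

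**Figure D5:**
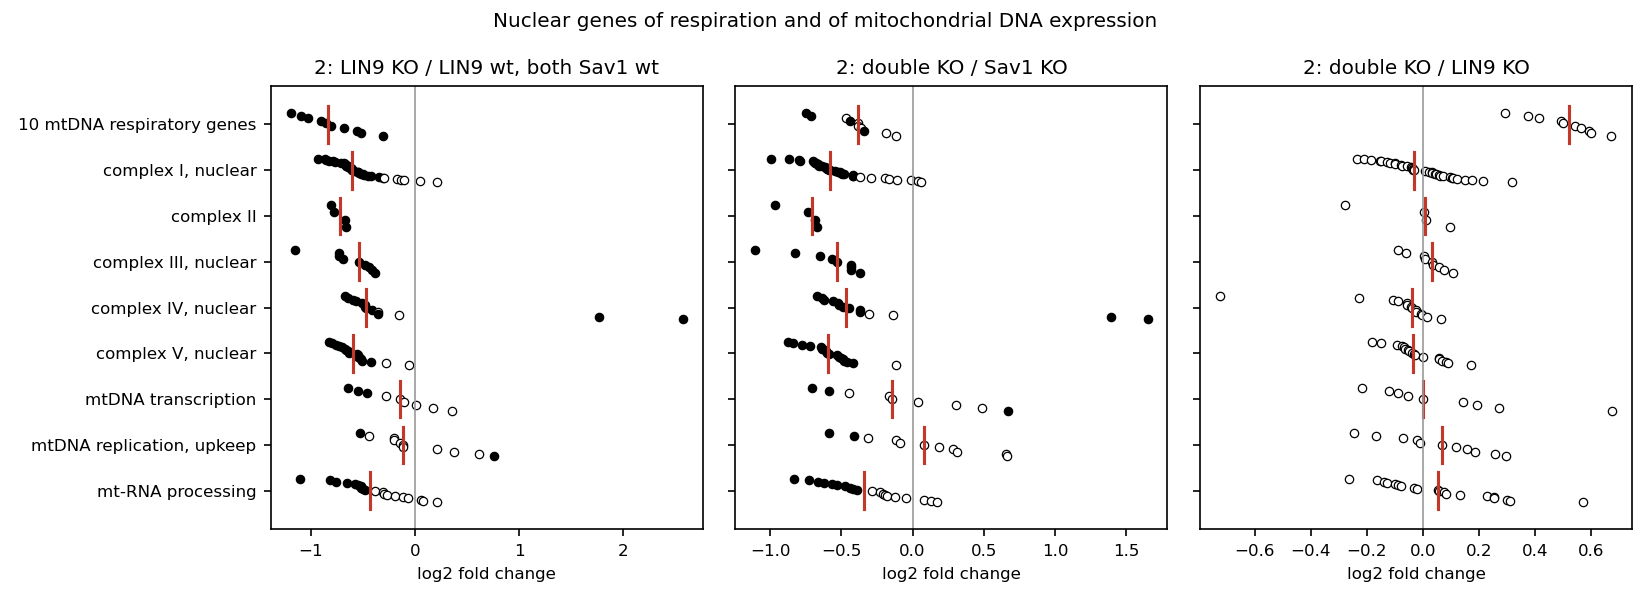
Log2 fold changes of single genes (points, filled where past the test, edgeR adjusted p under 0.05) and their median (red bar) for the 10 members and for 8 lists of nuclear genes, in 3 comparisons whose horizontal axes differ in range. The medians of the members are -0.83, -0.38 and 0.52 from left to right, and those of the nuclear genes of complex I are -0.60, -0.58 and -0.03; the 2 points far to the right in complex IV are Cox4i2 and Cox6b2.

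Genes that transcribe mitochondrial DNA were called in part. Of 9 tested transcription genes, 3 were lower in LIN9 KO with Sav1 wt, the RNA polymerase Polrmt (-0.46 ± 0.162, edgeR, adjusted p = 0.0379), the elongation factor Tefm (-0.55 ± 0.202, adjusted p = 0.0481) and Mterf3 (-0.64 ± 0.165, adjusted p = 0.00479). The packaging and initiation factor Tfam (-0.10 ± 0.125, adjusted p = 0.617) and the initiation factor Tfb2m (-0.28 ± 0.172, adjusted p = 0.265) did not pass. Levels of Polrmt were 36.5, 38.0 and 28.7 CPM in controls and 25.6, 23.6 and 25.7 CPM in LIN9 KO, apart but low in count. In double KO against Sav1 KO, Polrmt (-0.71 ± 0.166, edgeR, adjusted p = 0.00214) and Tefm (-0.58 ± 0.202, adjusted p = 0.0352) were lower, Mterf3 did not pass (-0.14 ± 0.154, adjusted p = 0.554), and Mterf2, named after its value had been seen, was higher (0.67 ± 0.239, adjusted p = 0.0406). These are 3 calls of 9 in each comparison, where 23.2% and 23.4% of all genes were called. In the first experiment Tfb2m alone of the list passed (-0.36 ± 0.124, adjusted p = 0.0493).

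Of 11 genes of replication and upkeep, Dna2 fell (-0.53 ± 0.122, edgeR, adjusted p = 0.00186) and Primpol rose (0.76 ± 0.178, adjusted p = 0.00226), while the polymerase Polg (-0.20 ± 0.126, adjusted p = 0.293) and the helicase Twinkle, listed as Peo1 (-0.11 ± 0.135, adjusted p = 0.625), did not pass. These are 2 calls of 11, where 23.2% of all genes were called. Of 20 genes for processing and stability of mitochondrial RNA, 10 were lower, Fastkd1 the most (-1.11 ± 0.146, edgeR, adjusted p = 1.8e-06). Lrpprc, whose product protects mitochondrial mRNAs together with that of Slirp, was at 155, 189 and 180.1 CPM in controls and 122, 131 and 113 CPM in LIN9 KO (-0.52 ± 0.103, edgeR, adjusted p = 0.000398), and Slirp did not pass (-0.12 ± 0.193, adjusted p = 0.727). Of 8 regulators of mitochondrial biogenesis 5 were lower, with Esrrg (-0.77 ± 0.213, edgeR, adjusted p = 0.0222) the most, and Ppargc1a, the coactivator PGC-1alpha, at 120, 137 and 159 CPM in controls and 70.6, 106 and 86.8 CPM in LIN9 KO (-0.65 ± 0.149, adjusted p = 0.00315). The groups of Esrrg overlapped. In double KO against Sav1 KO, Esrrg did not pass (-0.14 ± 0.210, edgeR, adjusted p = 0.691), whereas Ppargc1a was lower (-0.68 ± 0.148, adjusted p = 0.00229). Of 14 genes for other mitochondrial proteins, listed as a measure of mitochondrial mass, 9 were lower with a median of -0.39, Hspd1 the most (-0.86), and of 10 translation factors 5 were lower, Tsfm the most (-0.88). In LIN9 KO with Sav1 wt 23.2% of all genes were called in either direction, and the share called lower is given above with the members. In the Sav1 comparison with LIN9 KO, 0 genes of each of these lists were called (edgeR).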

How the data were processed

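Poly(A) RNA of 18 ventricle libraries was analysed, and the 4 ChIP-seq samples were not used here. The authors mapped reads with TopHat2 (2.1.0) and Bowtie2 to mm10, brought samples to the smallest number of mappable reads, and deposited raw counts per Ensembl gene (GRCm38.p6) made with summarizeOverlaps. The overlap mode and strand setting are not given in the sources used here. Columns with values per sample left unused numbered 0, and repeated identifiers, 4 per table, were kept once.

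After TMM normalization, the quasi-likelihood test of edgeR (4.0.16, robust, R 4.3.3, limma 3.58.1) was applied to genes whose mean count exceeded 1, 19752 in the first table and 17675 in the second, where 1 fit held the 12 libraries. P-values were adjusted by Benjamini-Hochberg over all genes tested (threshold 0.05). CPM used TMM library sizes, log2 CPM a prior count of 2, and CPM per kb the gene length. Intervals are 95% intervals of the fit. The procedure was tested on simulated data. The members and gene lists were chosen with earlier results of these data known. Named genes were the members, Lin9, Sav1, the other genes of mitochondrial DNA and its chromosome 1 copies, per nuclear list the largest rise and fall past the threshold in LIN9 KO with Sav1 wt of the second experiment, 9 preset regulators, and the 5 genes most correlated with the members. Nuclear copies were searched at 92% identity or more over at least 100 bases (11 found).

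Alternatives were DESeq2 (1.42.0) as size factors and as test, total counts, library sizes without mitochondrial or haemoglobin genes, other filters, a replicate block, only the libraries compared, each library left out, and, chosen after seeing the data, members summed with their copies. Replicate numbers pair samples where the deviations of same-numbered libraries from their group means all correlate above 0.1. This held only for LIN9 KO and controls of the second experiment (0.119 to 0.469), from the data alone, and not for the first experiment (0.0432 to 0.180) or comparisons with other groups (-0.0757 to 0.190).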

Additional observations from a re-analysis of the deposited data

How the results depend on the processing

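Of the members' values, 5 turned sign when single libraries were left out, to at most 0.10 in size and not past the threshold, and all others kept their direction under every setting tried. With single libraries left out, Sav1 KO with LIN9 wt ranged from -0.042 to 0.19 in mt-Nd4, -0.10 to 0.20 in mt-Nd5, -0.082 to 0.22 in mt-Nd6 and -0.023 to 0.14 in mt-Co3, negative without control replicate 1, and double KO against controls ranged from -0.17 to 0.023 in mt-Co1, positive without control replicate 2, control replicate 3 or double KO replicate 2. Scaling by DESeq2 size factors, total counts, or library sizes without mitochondrial or haemoglobin genes left the number of members called the same in all 7 comparisons and moved the median of all genes by less than 0.1. With a replicate block, 8 members passed in the first experiment (mt-Nd4, mt-Co3, mt-Cytb and mt-Atp6 added; 25.3% of all genes), where the numbers do not pair the samples, 84 genes passed for Sav1 KO with LIN9 KO, and no other member call changed. With only the 6 libraries compared, 8 members passed in double KO against Sav1 KO (28.6% of all genes), 31 genes for Sav1 KO with LIN9 wt, and 0 for Sav1 KO with LIN9 KO. Without a filter, 22 genes passed for Sav1 KO with LIN9 wt, 309 genes and 8 members for Sav1 KO with LIN9 KO, 4 members in double KO against controls (16.8% of all genes), and 17 genes for the interaction. For Sav1 KO with LIN9 KO, DESeq2 called 46 genes and 7 members, and filterByExpr 0 genes. With single libraries left out, called members numbered 1 to 5 in the first experiment (2722 to 4223 genes), 8 to 10 for LIN9 KO with Sav1 wt (3035 to 4116 genes), 2 to 5 for double KO against Sav1 KO (2975 to 3841 genes), 0 for Sav1 KO with LIN9 wt (0 to 2 genes), 0 to 3 for Sav1 KO with LIN9 KO (0 to 377 genes), 1 to 4 for double KO against controls (2473 to 3477 genes), and 0 for the interaction (0 to 64 genes). The cause of these changes was not tested.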
